A study of Mus musculus with 8 samples.

Results

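The Ly6 cluster on mouse chromosome 15 was followed through RNA of LSK cells, bone marrow cells that lack lineage markers and carry Sca-1 and c-Kit, among which are the blood stem cells and early progenitors. Its members were taken as every gene of the count table whose symbol starts with Ly6 and that lies on chromosome 15, which gave 7 of 13708 genes: Ly6d, Ly6k, Ly6e, Ly6i, Ly6a, Ly6c1 and Ly6c2. The 4 db/db libraries came from B6.BKS(D)-Leprdb/J mice homozygous for the mutated leptin receptor, which become obese and diabetic. The 4 db/m libraries came from B6.BKS(D)-Leprdb/+ mice, which are heterozygous and so carry 1 copy of the same allele. Both groups are labelled as taken 6 months after diabetes, and neither has a stated age or sex. All 8 titles carry the db/m name, so the genotype label set the groups. Separate mice are not stated for the libraries, so errors and p-values measure only the spread between these 8 samples, which may be technical.

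Ly6 genes encode small proteins folded around disulfide bonds, most of them tied to the outer face of the cell membrane by a glycosylphosphatidylinositol (GPI) anchor. They are best known as antigens: Sca-1, the product of Ly6a, defines the S of LSK, Ly6C marks monocytes and their precursors, and Ly6D marks lymphoid progenitors that have turned towards B cells. Several of them, Ly6a, Ly6c and Ly6e among them, are induced by interferon, and Sca-1 and Ly6C are also found on plasma cells.

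In mm10 the 7 genes lie on chromosome 15 between positions 74762056 and 75111949, a span of 350 kb (349.9). In chromosomal order they are Ly6d (74762056 to 74763567), Ly6k (74796874 to 74799968), Ly6e (74955051 to 74959905), Ly6i (74979812 to 74983430), Ly6a (74994877 to 74998031), Ly6c1 (75044018 to 75048837) and Ly6c2 (75108161 to 75111949). Ly6e is on the plus strand and the other 6 are on the minus strand, and the positions are the outer ends of the exons in which reads were counted. The cluster was chosen because db/db and db/m libraries were already known to differ in it, so the values of that contrast are described here without a test. In bulk RNA, fewer cells of a type and less RNA per cell cannot be told apart.

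Every member had a lower mean in db/db than in db/m libraries. Ly6a had 134, 119.5, 91.7 and 178 CPM (counts scaled to a common library size) in db/db replicates 1 to 4, against 544, 568, 317 and 434 CPM in db/m replicates 1 to 4. All db/db libraries lay below all db/m libraries. Means were 131 ± 36.1 CPM in db/db and 466 ± 115 CPM in db/m (SD, n = 4 each). The log2 fold change was -1.83 ± 0.24 (SE), so that db/db libraries held 0.281 of the db/m level.

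Ly6c2, which encodes the Ly6C antigen of monocytes, was near Ly6a in level and further apart between the genotypes. It had 160.4, 80.4, 103 and 178 CPM in db/db libraries, against 537, 882, 327 and 709 CPM in db/m libraries, again without overlap. The log2 fold change was -2.23 ± 0.34 (SE). Its neighbour Ly6c1, known from endothelial cells and lymphocytes, was close to the detection limit, with 25, 19, 4 and 28 reads in db/db libraries and 63, 59, 41 and 95 reads in db/m libraries. The log2 fold change of Ly6c1 was -1.84 ± 0.64 (SE), with 0.585 ± 0.374 CPM in db/db and 2.09 ± 0.753 CPM in db/m (SD, n = 4 each).

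Ly6d, the antigen of B-biased lymphoid progenitors, had 38.8, 25.0, 70.7 and 159.6 CPM in db/db libraries, against 333, 320.1, 145 and 329 CPM in db/m libraries. Here the groups overlapped, because replicate 4 of db/db exceeded replicate 3 of db/m. The log2 fold change was -1.94 ± 0.52 (SE), and the highest db/db library held 6.39 times the CPM of the lowest.

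Ly6e, a broadly expressed member known for restricting the entry of some viruses, had the smallest difference and the tightest groups. It had 979, 1001, 1003 and 1203 CPM in db/db libraries and 1853, 1873, 1545 and 1837 CPM in db/m libraries, without overlap. The log2 fold change was -0.76 ± 0.12 (SE), so that db/db libraries held 0.589 of the db/m level. Highest and lowest library differed by 1.23 times in db/db and by 1.21 times in db/m.

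The remaining members were low. Ly6i, a close relative of Ly6a, had 0.607, 0.821, 1.33 and 2.94 CPM in db/db libraries and 7.20, 8.76, 4.06 and 7.16 CPM in db/m libraries, which did not overlap, with a log2 fold change of -2.26 ± 0.51 (SE). Ly6k, a gene best known from testis and sperm, had 2.46, 0.790, 7.57 and 12.5 CPM in db/db libraries and 23.5, 71.2, 5.83 and 22.4 CPM in db/m libraries. The groups overlapped in Ly6k, since db/db replicates 3 and 4 both lay above db/m replicate 3. Its log2 fold change of -2.40 ± 0.86 (SE) had the widest error of the 7, and db/m replicate 2 held the most reads, 1868, where the other libraries had 26 to 724.

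**Figure D1:**
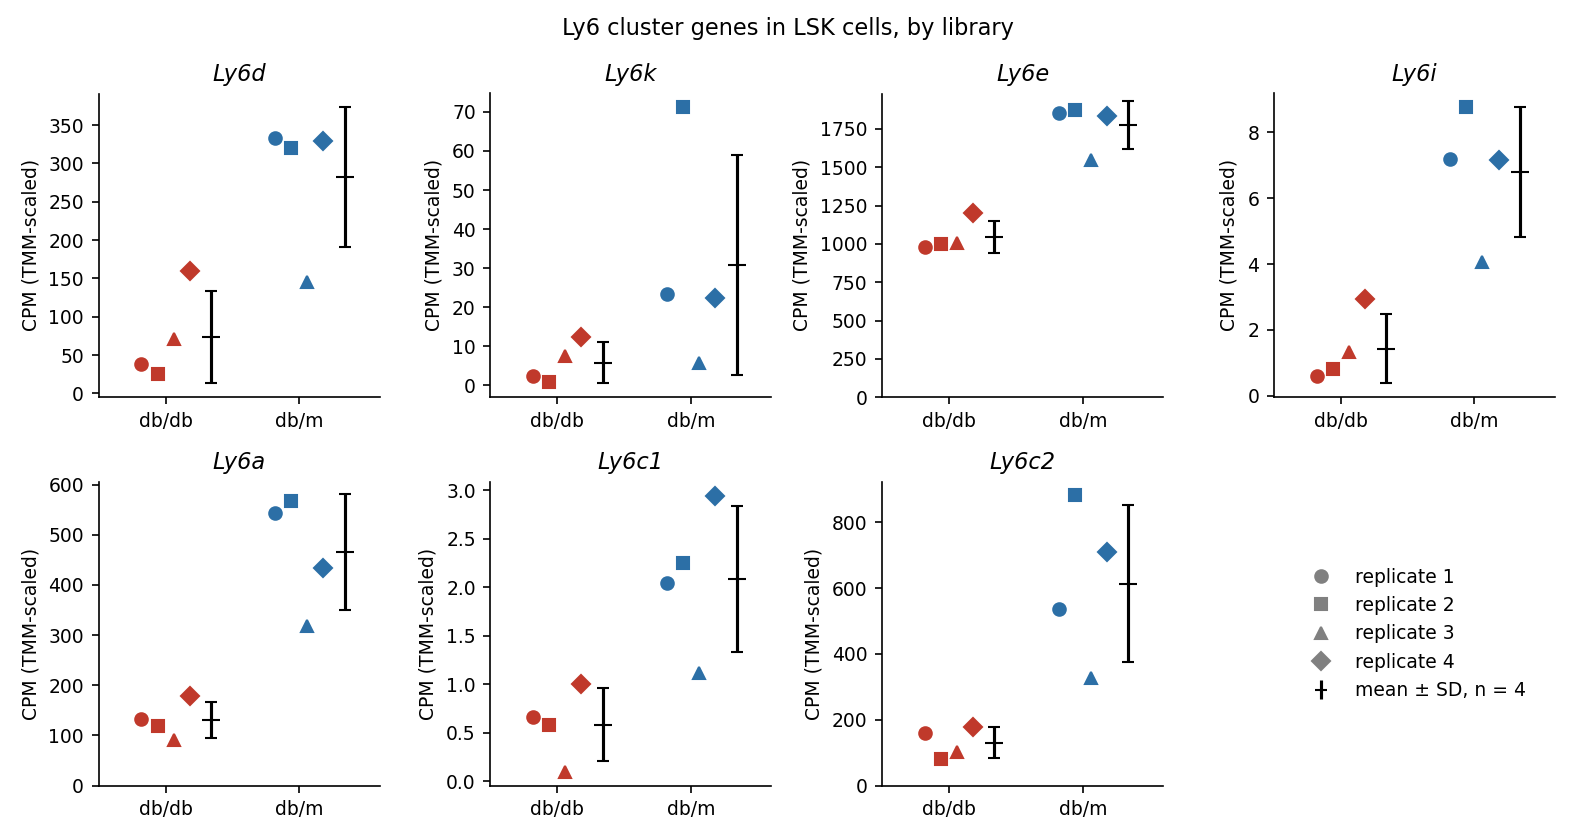
TMM-scaled CPM (y axis, linear) of each Ly6 gene in the 4 db/db and 4 db/m libraries; each symbol is 1 library, the same symbol is not a pair, and the bar is the mean ± SD. The groups are apart in Ly6e, Ly6i, Ly6a, Ly6c1 and Ly6c2 and overlap in Ly6d and Ly6k.

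Against the whole table, 5 of the 7 members had all db/db libraries below all db/m libraries, where 4.53% of the 13708 genes did. The opposite order held for 4.5% of genes and for no member. A test across all genes (edgeR's quasi-likelihood test with Benjamini-Hochberg adjustment, threshold 0.05) called 5 genes (0.0365%), 3 lower (0.0219%) and 2 higher (0.0146%) in db/db, and Ly6a was among the lower ones, which is part of why the cluster was chosen. That call ended, with 0 genes called lower, under upper-quartile scaling, limma-voom and the plasma cell covariate described below, without db/db replicate 1, 2 or 3 and without db/m replicate 1, 2 or 4. In the authors' deposited table, 5 of the 7 members, all but Ly6k and Ly6c1, had a false discovery rate under 0.05 with a lower level in db/db, as did 2.2% of all genes, while 4.28% of genes did in either direction. Because the cluster was chosen from this contrast, nothing is read from these counts. The log2 fold changes of the 7 members ranked from 19th (Ly6k) to 654th (Ly6e) from the lowest in the table.

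The highest db/db and the lowest db/m library were the same for every member. Of the 4 db/db libraries, replicate 4 had the highest CPM in 7 of 7 members, and of the 4 db/m libraries, replicate 3 had the lowest in 7 of 7. Replicate 2 had the highest CPM among the db/m libraries in 5 members. Within db/db, replicates 3 and 4, whose titles share a prefix, were both above replicates 1 and 2, whose titles share another, in Ly6d, Ly6k, Ly6e and Ly6i. Mean CPM of replicates 3 and 4 was 3.61 times that of replicates 1 and 2 in Ly6d, 6.17 times in Ly6k and 2.99 times in Ly6i, but 1.11 times in Ly6e, 1.07 times in Ly6a, 1.17 times in Ly6c2 and 0.890 times in Ly6c1. The prefixes each occur in 1 genotype, so prefix and genotype cannot be told apart in full.

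Levels of different genes were compared per length, as RPKM (CPM divided by the exon length in kilobases). In db/db, Ly6e led with 455 ± 45.5 RPKM, above every other member in all 4 libraries. Ly6c2 followed at 163 ± 57.7, Ly6a at 130.5 ± 36.0 and Ly6d at 106 ± 87.6 RPKM, and the ranges of neighbours in this order overlapped. Far below them were Ly6k at 7.53 ± 6.83, Ly6i at 1.62 ± 1.20 and Ly6c1 at 0.356 ± 0.227 RPKM (SD, n = 4). In db/m the order was the same, but Ly6e at 772 ± 67.4 and Ly6c2 at 766 ± 297 RPKM were alike within their spread, and each was above the other in 2 of 4 libraries. There Ly6a was at 465 ± 115, Ly6d at 408 ± 132, Ly6k at 39.8 ± 36.4, Ly6i at 7.74 ± 2.24 and Ly6c1 at 1.27 ± 0.458 RPKM (SD, n = 4). Of the remaining neighbours in the db/m order, Ly6c2 and Ly6a, Ly6a and Ly6d, and Ly6k and Ly6i had overlapping ranges, and Ly6k and Ly6i did so in db/db as well.

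Summed over the cluster, the level was 864 ± 213 RPKM in db/db and 2460 ± 603 RPKM in db/m (SD, n = 4 each; the db/m mean was 2459.9). Ly6e made up 44.5% to 62.8% of that sum in db/db libraries and 26.7% to 41.5% in db/m libraries, which did not overlap. Ly6c2 made up 14.5% to 24.4% in db/db and 25.2% to 36.1% in db/m. For Ly6a the shares were 11.9% to 17.2% in db/db and 16.5% to 21.4% in db/m, and for Ly6d they were 5.22% to 19.7% in db/db and 12.96% to 18.95% in db/m, so both overlapped. By CPM without length, Ly6e made up 75.9% ± 5.28 of the sum in db/db and 56.8% ± 6.55 in db/m (SD, n = 4 each), since its exons are the longest of the 7.

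**Figure D2:**
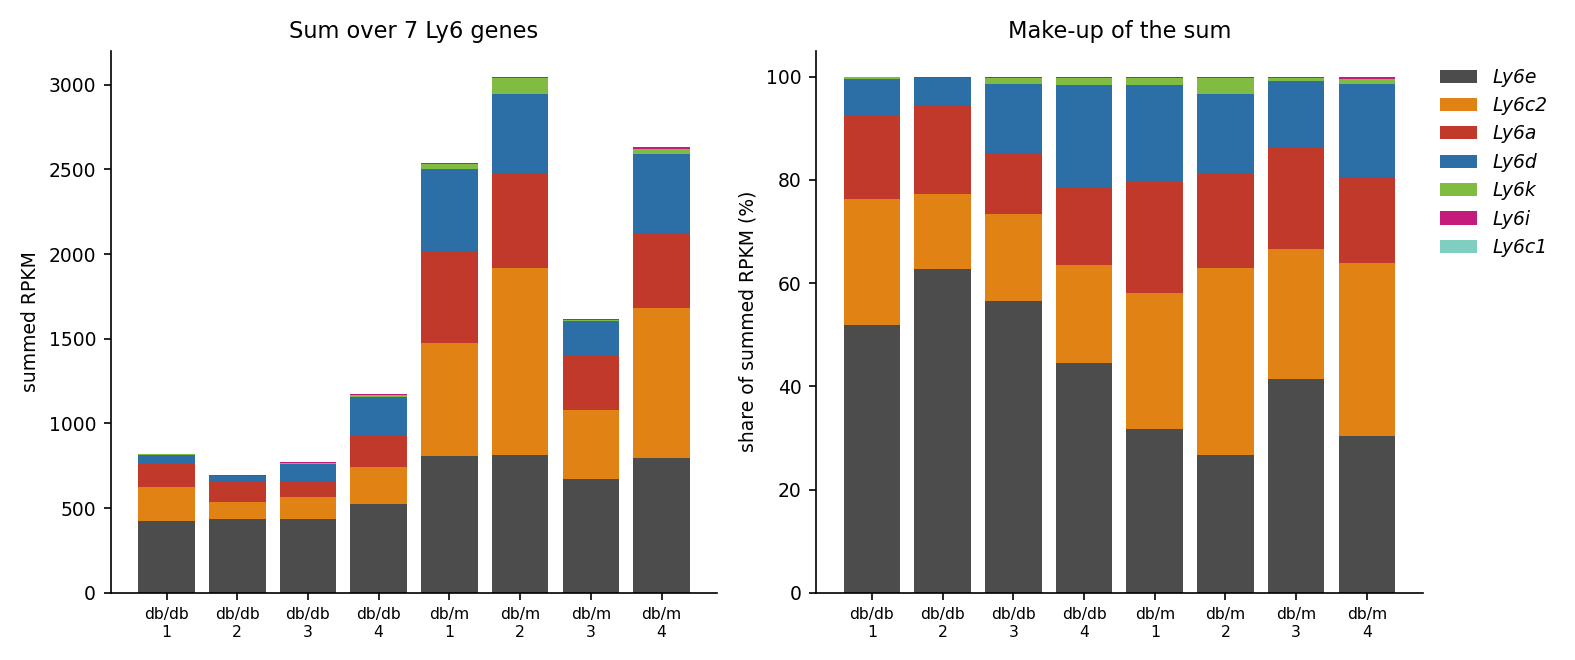
Left, RPKM of the 7 Ly6 genes stacked for each library; right, the same as percent of the library's sum. The db/db sums run from 693 to 1174 RPKM and the db/m sums from 1619 to 3048 RPKM, and the Ly6e share is larger in each db/db library than in any db/m library.

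Ratios between members were compared next. The log2 ratio of Ly6e to Ly6a was 3.04 ± 0.30 in db/db and 1.96 ± 0.27 in db/m (SD, n = 4 each), and the ranges, 2.76 to 3.45 and 1.72 to 2.28, did not overlap. Ly6e to Ly6c2 was at 3.07 ± 0.47 in db/db and 1.62 ± 0.50 in db/m, likewise apart. By contrast, Ly6a to Ly6c2 was at 0.03 ± 0.37 in db/db and -0.34 ± 0.38 in db/m, with overlapping ranges. Ly6d to Ly6c2 averaged -1.11 in both groups, with an SD of 0.90 in db/db and 0.32 in db/m. These are log2 ratios of CPM, described without a test because they follow from the contrast that chose the cluster.

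Members can share reads. Aligned to each other, the coding sequences of Ly6c1 and Ly6c2 were 93.8% identical, those of Ly6i and Ly6a 86.4% and those of Ly6a and Ly6c2 83.6%, while every pair with Ly6d, Ly6k or Ly6e was at 68.5% or less. Of all stretches of 100 bases in annotated transcripts, 10.1% of those of Ly6c1 and 14.9% of those of Ly6c2 also occurred in another gene, mainly in each other. For Ly6a it was 1.45%, shared with Ly6c1, and for Ly6d, Ly6e and Ly6i it was 0 stretches. How such reads were assigned is not stated, so the values of Ly6c1, a gene far below Ly6c2 in level, are uncertain. Ly6k overlaps an antisense gene, Gm17189, with which 18.5% of its stretches are shared. Coding reads fell on the sense strand in 54.3% to 54.8% of cases, so reads of Ly6k and of Gm17189 cannot be told apart.

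The sequences just before the start of this most alike pair are shown to compare them where their transcription begins. Both are on the minus strand of GRCm38.p6 (RefSeq, the same assembly as mm10), 250 bases each, 5′ to 3′, at chr15:75048838-75049087 for Ly6c1 and chr15:75111972-75112221 for Ly6c2. Capitals mark a motif match.
Ly6c1: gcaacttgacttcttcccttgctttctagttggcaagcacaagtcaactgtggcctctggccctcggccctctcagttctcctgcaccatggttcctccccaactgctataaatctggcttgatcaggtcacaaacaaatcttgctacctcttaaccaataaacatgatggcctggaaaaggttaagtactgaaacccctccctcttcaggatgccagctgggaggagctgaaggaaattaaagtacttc
Ly6c2: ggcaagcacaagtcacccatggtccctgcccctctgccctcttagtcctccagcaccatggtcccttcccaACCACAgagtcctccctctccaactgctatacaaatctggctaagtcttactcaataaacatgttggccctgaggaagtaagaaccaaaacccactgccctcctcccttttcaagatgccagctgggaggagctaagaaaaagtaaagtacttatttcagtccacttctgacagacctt
The pair was identical at 164 of 216 aligned bases (75.9%), less than over the coding part. Of 5 motifs searched on both strands, 1 was found: the Runx motif TGTGGT, read on the other strand as ACCACA, lies 179 bases before the RefSeq start of Ly6c2, which differs from the outer exon end given above, and is not in the Ly6c1 window. It occurs in 14.05% of 32851 promoter windows of the same length. The others, none of them in either window, were the interferon-gamma activated site TTCNNNGAA (7.02% of windows), the interferon-stimulated response element (2.98%), the Gata motif AGATAA (9.99%) and the Cebp motif TTGCNNAA (9.56%). A match describes letters only and shows no binding. Promoter sequences of 2 of the 7 members were matched in the table used.

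The question whether the lower level extended to genes around the cluster was asked of the 22 other genes of the table within 1 Mb of it. In edgeR's quasi-likelihood fit 0 of them reached an adjusted p under 0.05, 1 had an unadjusted p under 0.05 with a lower level in db/db, and 0 had one with a higher level, where 7.54% and 7.78% of all genes did. That 1 gene was Lynx1, which encodes another GPI-anchored Ly6-fold protein, a modulator of nicotinic acetylcholine receptors, and lies 9.08 kb before Ly6d. Lynx1 had 2.38, 1.61, 2.04 and 4.70 CPM in db/db libraries and 9.34, 3.35, 6.05 and 5.92 CPM in db/m libraries, which overlapped (log2 fold change -1.20 ± 0.42, SE; adjusted p = 0.218).

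Next by p were genes farther off. Top1mt, the mitochondrial topoisomerase, had a log2 fold change of -0.41 ± 0.20 (adjusted p = 0.363), and Tsta3, an enzyme of GDP-fucose synthesis, of -0.24 ± 0.12 (adjusted p = 0.378, both edgeR). Over the 22 neighbours the median log2 fold change was -0.11, with 15 negative and 7 positive, against 0.0094 over all genes, of which 48.6% were negative. Between the cluster and the nearest tested gene beyond Ly6c2 there were 316 kb.

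**Figure D3:**
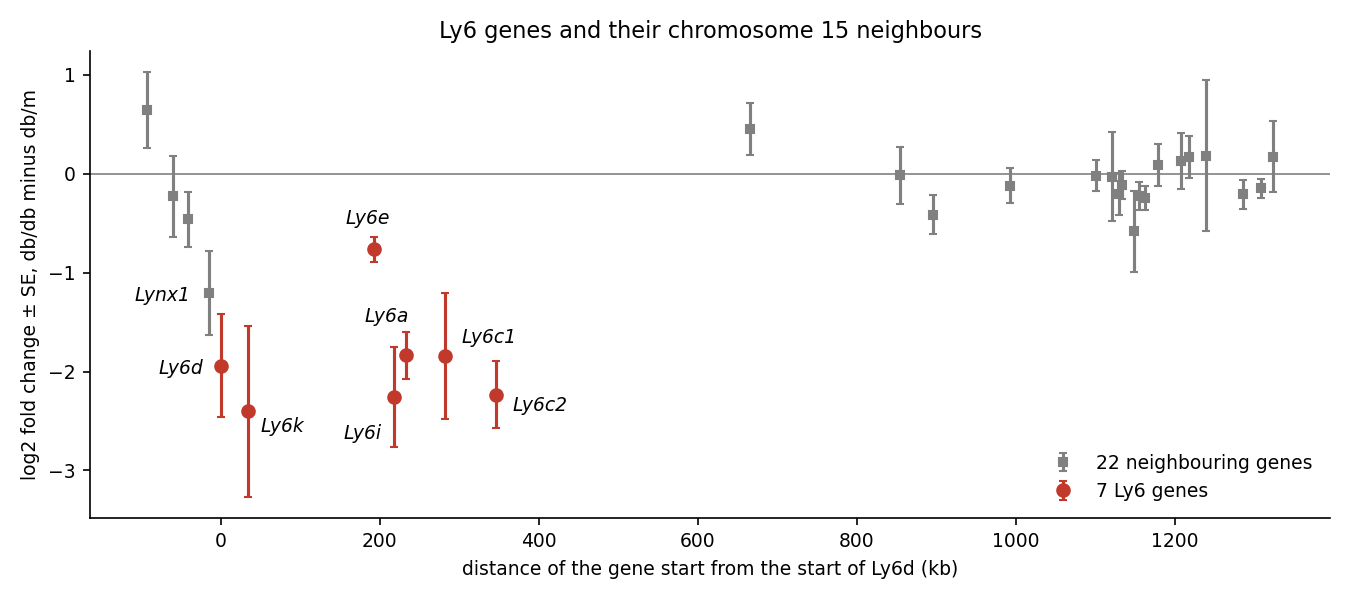
Log2 fold change (db/db minus db/m) with its SE for the 7 Ly6 genes and 22 neighbours, by the distance of the gene's start from that of Ly6d in kb. The Ly6 genes sit between -2.40 and -0.76, and the neighbours between -1.20 (Lynx1) and 0.64.

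Relatives of the family outside the 7 members did not follow one direction. Of 28 Ly6/uPAR-fold genes listed, 7 were in the table, 4 with negative log2 fold changes, Lynx1 among them, and 3 with positive ones, and 0 passed an adjusted p of 0.05 by edgeR. Their median of -0.21 had no stable sign: it was 0.0026, 0.028 and 0.096 without db/db replicate 1, 2 or 3. Cd59a, an inhibitor of complement, had 14.2, 17.5, 29.7 and 20.6 CPM in db/db libraries and 14.5, 11.9, 7.68 and 12.2 CPM in db/m libraries (log2 fold change 0.83 ± 0.27, adjusted p = 0.189). Ly6g6f, a platelet protein of chromosome 17 and the only Ly6 symbol of the table outside chromosome 15, had 1.69, 1.03, 3.08 and 8.33 CPM in db/db libraries and 1.40, 1.41, 0.681 and 0.434 CPM in db/m libraries (log2 fold change 1.85 ± 0.69, adjusted p = 0.246, both edgeR). Groups overlapped in both genes.

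Genes that make the anchor showed no common direction. All 31 listed genes of GPI anchor synthesis, attachment and remodelling were in the table, 17 with negative and 14 with positive log2 fold changes, and their median was -0.0072. By edgeR's test 0 of 31 passed an adjusted p of 0.05. At an unadjusted p under 0.05, 2 were higher (6.45%) and 0 lower, where 7.78% of all genes were higher and 7.54% lower. The share of higher genes was thus near that of all genes. The 2 higher genes were Tmem8, linked to trimming of GPI-anchored proteins, at 0.48 ± 0.19 (adjusted p = 0.262), and Pigl, which takes the acetyl group off the first sugar of the anchor, at 0.35 ± 0.15 (adjusted p = 0.310). Pign, which modifies the first mannose, was at 0.29 ± 0.13 (adjusted p = 0.332). These 3 are log2 fold changes with SE.

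Interferon genes were looked at because several Ly6 genes respond to interferon. In the list of 44 receptors, signalling proteins and targets, 26 had negative and 18 positive log2 fold changes (median -0.06), and 0 passed an adjusted p of 0.05 by edgeR's test. At an unadjusted p under 0.05, 9 were lower (20.5%) and 5 higher (11.4%), against 7.54% and 7.78% of all genes. Groups were apart in 7 lower (15.9%) and 0 higher, against 4.53% and 4.5% of all genes. Those with the smallest p were lower in db/db: Bst2, a membrane protein that tethers viruses, at 45.7 ± 6.94 CPM in db/db and 79.5 ± 8.35 CPM in db/m (log2 fold change -0.80 ± 0.14), Ifi27l2a at 4.69 ± 1.24 CPM in db/db and 19.9 ± 10.3 CPM in db/m (-2.09 ± 0.38), and Zbp1, a sensor of nucleic acids, at 15.6 ± 3.48 CPM in db/db and 30.4 ± 4.30 CPM in db/m (-0.97 ± 0.20; errors of levels are SD with n = 4 each, those of log2 fold changes SE). All 3 kept their groups apart and had adjusted p of 0.0797 (Bst2 and Ifi27l2a) and 0.0820 (Zbp1) by edgeR. Irf1, a transcription factor induced by interferon, had a log2 fold change of -0.06. Bst2 and Ifi27l2a were highest in db/m replicate 3, the db/m library lowest in every Ly6 member, while Zbp1 was highest in db/m replicate 1. Whether interferon had a part in the Ly6 levels was not tested.

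Among 17 factors whose motifs were searched, 11 had negative and 6 positive log2 fold changes (median -0.06) and 0 passed. Runx3 was at 62.6 ± 10.2 CPM in db/db and 93.4 ± 4.87 CPM in db/m (log2 fold change -0.58 ± 0.13), with groups apart and an adjusted p of 0.0892. Irf8, a factor of monocytes and dendritic cells, was at 124 ± 50.4 CPM in db/db and 386 ± 217 CPM in db/m (-1.64 ± 0.39, edgeR adjusted p = 0.101), also apart. Gata2, a factor of stem cells, was at 403 ± 82.1 CPM in db/db and 254 ± 73.0 CPM in db/m (0.67 ± 0.23, edgeR adjusted p = 0.213), with overlap.

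To place the members among all genes, profiles of centred log2 CPM over the 8 libraries were compared by their root mean square difference. Nearest to Ly6a were Pon3, a lactonase bound to lipoproteins (0.229), the tight junction protein Cldn7 (0.264) and the membrane glycoprotein Gpm6a (0.280). For Ly6c2 they were Hsd11b1, which makes active glucocorticoid (0.289), Nuggc, a nuclear GTPase of germinal centre B cells (0.295), and Creld2, an endoplasmic reticulum protein (0.325). Next to Ly6d were Bmp6 (0.216), Pou2af1, a coactivator of B cells and plasma cells (0.246), and Tnfrsf17, the plasma cell receptor BCMA (0.249). Nearest to Ly6e were Cnp (0.088), Fut8, a fucosyltransferase (0.095), and Krtcap2, a subunit of the glycosylating complex (0.118). Of the other members, Ly6a was 5th nearest to Ly6c2 (0.378) and Ly6i 18th nearest to Ly6d (0.327). From Ly6d the other members ranked 18th to 364th (Ly6e). From Ly6a they ranked 21st (Ly6c2) to 316th (Ly6d), except Ly6k at 11456th. From Ly6c2 they ranked 5th to 276th (Ly6e), except Ly6k at 1146th. From Ly6e they were 8799th to 13324th, although Ly6e was 172nd from Ly6a. Profiles were centred but not scaled, so these distances also reflect how large the difference between the genotypes was in each gene. All values are log2 units over 8 libraries that share the genotype contrast.

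The sort markers and the other cell types in the libraries were measured beside these results. All 16 LSK genes listed were in the table, with summed levels of 4576 to 6457 CPM in db/db and 4243 to 5194 CPM in db/m 12 positive log2 fold changes of 16 and a median of 0.40. c-Kit is sorted on together with Sca-1, and its gene Kit was at 812 ± 216 CPM in db/db and 658 ± 101 CPM in db/m (SD, n = 4 each; log2 fold change 0.30, edgeR adjusted p = 0.500). Lepr, the mutated gene, was at 1.20 ± 0.995 CPM in db/db and 0.671 ± 0.481 CPM in db/m, a level too low to check the labels by.

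Plasma cell genes were lower beside the cluster. All 14 listed were measured and had negative log2 fold changes (median -1.87). All 14 had an unadjusted p under 0.05 in edgeR, where 7.54% of all genes did with a lower level in db/db. Groups were apart in 8 of them (57.1%), all lower in db/db, against 4.53% of all genes. An adjusted p of 0.05 was passed by 0 in edgeR, and the list was chosen with earlier results in view. Their summed CPM was 2337, 1774, 5955 and 7294 in db/db replicates 1 to 4, against 19599.6, 21012, 5681 and 15036 in db/m replicates 1 to 4. db/db replicate 4, the db/db library highest in Ly6 genes, was also the highest of its group in this sum, and db/m replicate 3, lowest in Ly6 genes, was the lowest of its group and lay below db/db replicates 3 and 4. The intergenic reads of replicate 4 (db/db) and replicate 3 (db/m) were close, 11.9% and 12.2% of uniquely mapped reads, where the other db/db libraries had 5.15% to 9.64% and the other db/m libraries 23.4% to 26.5%. Between these 2 libraries, db/db replicate 4 and db/m replicate 3, Ly6a was at 178 and 317 CPM, Ly6c2 at 178 and 327, Ly6e at 1203 and 1545, Ly6i at 2.94 and 4.06, Ly6c1 at 1.005 and 1.12, Ly6d at 159.6 and 145, and Ly6k at 12.5 and 5.83 CPM. The db/db library was thus lower in 5 members and higher in Ly6d and Ly6k.

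Set against db/m replicate 3 alone, the log2 fold changes were -1.28 for Ly6a, -1.32 for Ly6c2, -0.56 for Ly6e, -0.98 for Ly6d, -1.51 for Ly6i, -0.94 for Ly6c1 and -0.00021 for Ly6k. With the mean level of the 14 plasma cell genes as a covariate they were -1.12 ± 0.34 for Ly6a, -1.14 ± 0.49 for Ly6c2 and -0.45 ± 0.19 for Ly6e (SE). For Ly6i the value was -0.62 ± 0.52, for Ly6c1 -1.11 ± 1.19 and for Ly6d 0.037 ± 0.33, and Ly6k turned positive (1.49 ± 0.54, all SE). In Ly6c1 and Ly6d the error was larger than the value itself. The plasma cell level nearly follows genotype and its genes were chosen with these results known, so the covariate takes part of the genotype difference with it. Fewer plasma cells among the sorted cells and lower Ly6 RNA per cell cannot be told apart here.

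**Figure D4:**
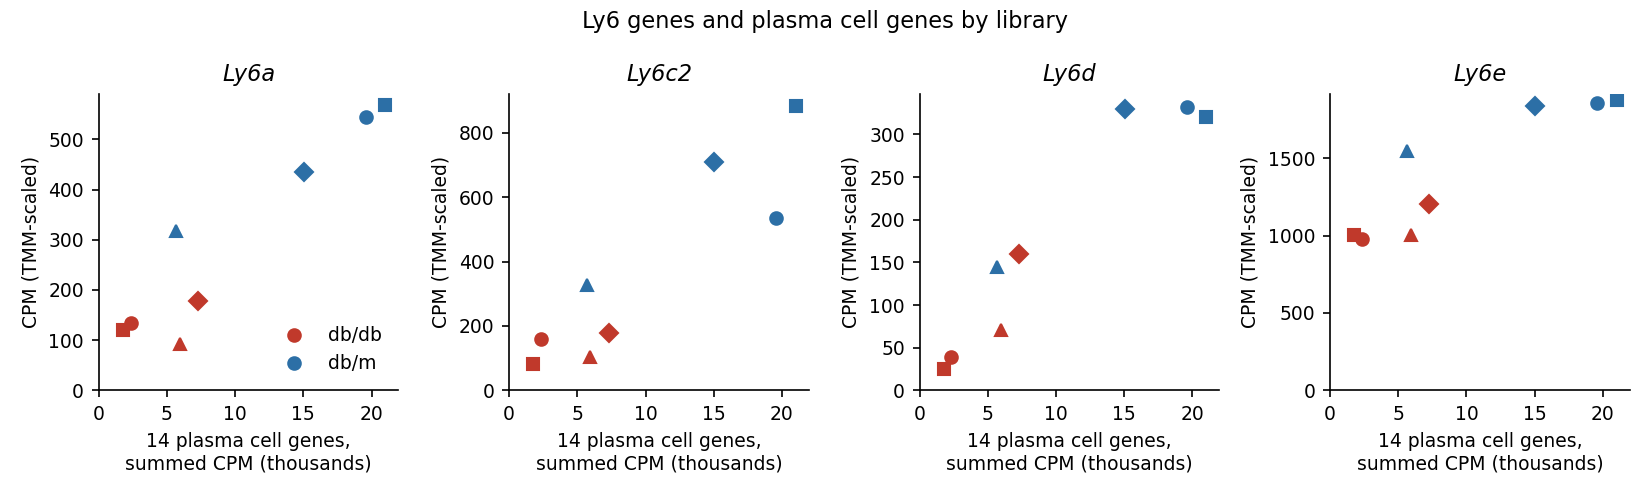
CPM of 4 Ly6 genes (y axis) against the summed CPM of 14 plasma cell genes (x axis, in units of 1000 CPM), 1 point per library, db/db in red and db/m in blue, with the symbols of replicates as in the plot of members by library. db/db replicates 3 and 4 and db/m replicate 3 have similar plasma cell sums, where Ly6a, Ly6c2 and Ly6e are highest in the db/m library and Ly6d is not.

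Markers of other cell types were summed in the same way. Of 13 monocyte genes 7 had negative log2 fold changes (median -0.44), with sums of 996 to 2009 CPM in db/db and 1474 to 2293 CPM in db/m. For granulocyte genes it was 11 of 14 (median -0.58, sums 2000 to 5274 CPM in db/db, lowest 1999.6, and 2570 to 12688 CPM in db/m, lowest 2569.9). Of 12 B lineage genes measured 11 were negative (median -0.74, sums 133 to 459 CPM in db/db and 321 to 580.01 CPM in db/m), and of 11 dendritic cell genes 9 were (median -0.36, sums 1407 to 2637 CPM in db/db and 2097 to 4430.1 CPM in db/m). These sums overlapped between the genotypes, and Pax5 and Cd209d were not analysed here. Lymphoid priming genes were negative in 9 of 10 (median -0.91), with sums apart at 1136 to 1458 CPM in db/db and 1692 to 2377 CPM in db/m, and T and NK cell genes in 11 of 15 (median -1.22), with sums of 247 to 302 CPM in db/db and 319 to 501 CPM in db/m, also apart. Endothelial genes had a median of 0.20 and sums of 478 to 633 CPM in db/db and 495 to 538 CPM in db/m. At an unadjusted p under 0.05 in edgeR, 70% of lymphoid priming and 53.3% of T and NK cell genes were lower. For dendritic cell genes it was 45.5%, for B lineage 33.3%, for monocyte 30.8% and for granulocyte genes 14.3%, against 7.54% of all genes. Groups were apart and lower in 60%, 53.3%, 18.2%, 8.33%, 7.69% and 7.14%, in that order, against 4.53%. At that p, 20% of endothelial and 9.09% of dendritic cell genes were higher, against 7.78%. None of the genes in these lists passed an adjusted p of 0.05 by edgeR, and their part in the Ly6 levels was not tested.

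Erythroid and megakaryocyte genes had positive log2 fold changes in 12 of 12 (median 1.45). Their sums were apart, at 2614 to 5145 CPM in db/db and 1129 to 1689 CPM in db/m. All 12 had an unadjusted p under 0.05 in edgeR, where 7.78% of all genes did with a higher level in db/db. Groups were apart in 6 of them (50%), against 4.5% of all genes. Stroma genes had a median of 1.29 over 7 measured, with sums of 69.2 to 317 CPM in db/db and 63.1 to 179 CPM in db/m. In both lists 0 genes passed an adjusted p of 0.05 by edgeR, and their part in the Ly6 levels was not tested.

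Across 21 other ways of fitting, Ly6e, Ly6i, Ly6a, Ly6c1 and Ly6c2 had a negative log2 fold change in all of them, while Ly6d and Ly6k did in 20, the plasma cell covariate being the exception. In Ly6e, Ly6i, Ly6a, Ly6c1 and Ly6c2 the groups do not overlap, so leaving libraries out could hardly turn the sign. All fits drew on the same libraries, so they add no independent support. Leaving out 1 library at a time gave -2.03 to -1.70 for Ly6a, -2.45 to -2.01 for Ly6c2, -0.85 to -0.73 for Ly6e, -2.66 to -1.65 for Ly6d, -2.88 to -2.003 for Ly6i, -2.25 to -1.48 for Ly6c1 and -3.08 to -1.57 for Ly6k. Ly6a and Ly6e thus moved least.

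**Figure D5:**
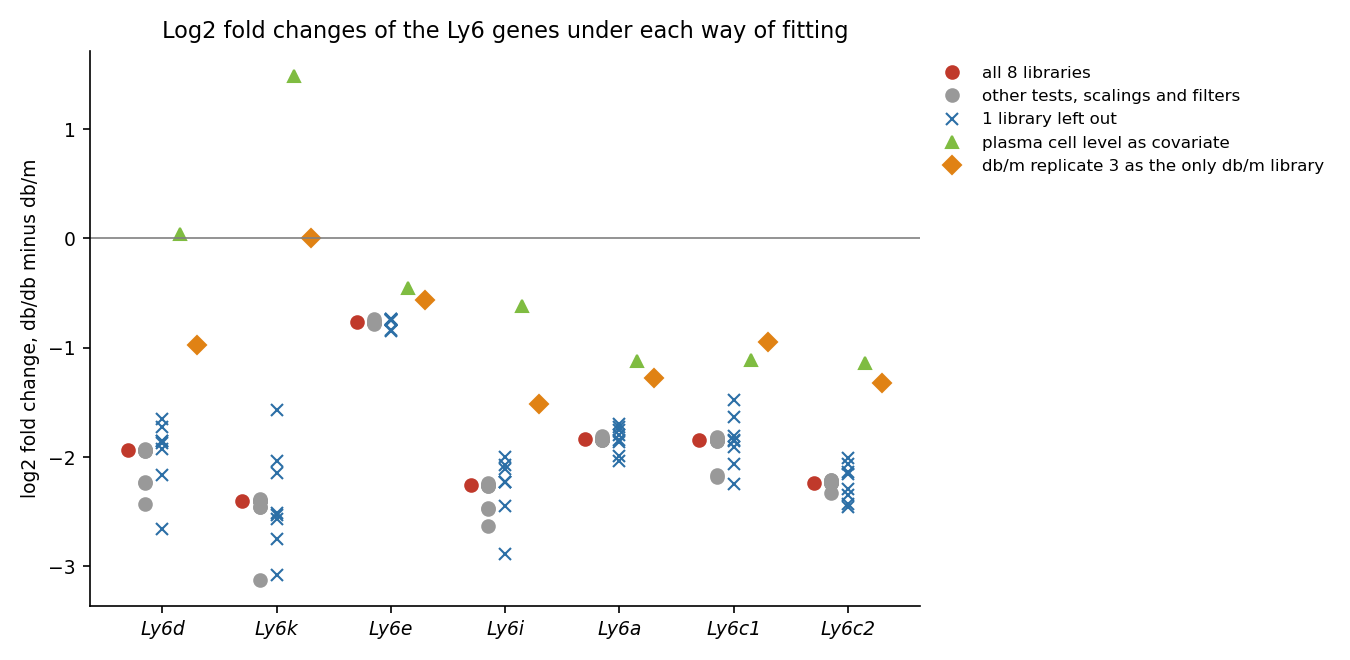
Log2 fold change (db/db minus db/m) of each Ly6 gene with all 8 libraries, under other tests, scalings and filters, with 1 library left out, with plasma cell genes as a covariate, and set against db/m replicate 3 alone. All points of Ly6e, Ly6i, Ly6a, Ly6c1 and Ly6c2 lie below 0, and Ly6d and Ly6k reach 0.037 and 1.49 with the covariate.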

How the data were processed

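Sorting was by flow cytometry, RNA came from Trizol and the mRNA libraries were of an ultralow type, per the labels' protocols. The submitters' processing notes name STAR 2.7.10a, Subread 2.0.3 with featureCounts, edgeR 3.40.2 and mm10. No source used here gives the annotation or strand setting. For 13708 genes (smallest row total 79) the table deposited by the authors holds raw counts, log2 CPM values, which match those computed here with a prior count of 2, and log2 fold changes with p-values that match edgeR's likelihood ratio test. Library totals were 27640853 to 42806327 counts, at least 99.9% of the reads on genes. All 41 exons of the members share a boundary with GENCODE M21.

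Counts were fitted in R 4.3.3 with edgeR 4.0.16: TMM scaling, filterByExpr (0 genes removed), quasi-likelihood test, Benjamini-Hochberg adjustment over all genes, no covariate. Errors marked SE belong to log2 fold changes. The test was also run on simulated counts drawn independently for each library, which cannot show how it behaves with batches or mixtures of cell types. Levels per length used the deposited gene length. The lowest chi-square per gene between 2 libraries was 48.2, so each counted once. Alternatives used limma 3.58.1 and DESeq2 1.42.0. Alignment used Biopython 1.88. Members and gene lists were chosen with earlier results of these data known. Named genes are all members, up to 5 neighbours and 3 genes per list by smallest p, the 3 nearest profiles of Ly6a, Ly6c2, Ly6d and Ly6e, Kit and Lepr. Irf1 was chosen after its values were seen. One gene is not reported here.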

Additional observations from a re-analysis of the deposited data

Results flagged for a closer look

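Of 48 groups of 4 libraries checked for a value far from the other 3, 5 stood out. About 1 in 20 would do so in independent groups of normally spread values. These groups share libraries and genes, so the count cannot be set against that rate. In the cluster, db/m replicate 3 was low in Ly6d, at 145 CPM against 320.1 or more in the other db/m libraries, and in Ly6e, at 1545 CPM against 1837 or more. In db/db, replicate 4 was high in Ly6e, at 1203 CPM against 1003 or less. Among the lists, the B lineage sum of db/db replicate 4 was 459 CPM against 178 or less in the other db/db libraries, and the stroma sum of db/db replicate 2 was 69.2 CPM against 285 or more.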

How the results depend on the processing

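The count of genes called by edgeR's quasi-likelihood test over the whole table was 5, and it was 0 with upper-quartile scaling and limma-voom, 3 with the plasma cell covariate, 587 with the likelihood ratio test and 757 with DESeq2. Against the 0 of limma-voom, limma-voom with the title prefix as a block gave 14 and limma-voom with quality weights 192. It ranged from 0 to 90 with 1 library left out (46 without db/db replicate 4, 90 without db/m replicate 3, 2 without db/m replicate 1, 0 without any other). With only the db/db libraries of 1 title prefix it was 12 (replicates 1 and 2) and 0 (replicates 3 and 4), a choice made after seeing the data. Among the 22 neighbours 0 were called in every fit run. The cause of these shifts was not tested.

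With the plasma cell covariate the log2 fold change turned positive for Ly6k (1.49) and was 0.037 ± 0.33 (SE) for Ly6d, an error larger than the value. It was -0.45 for Ly6e, -0.62 for Ly6i, -1.12 for Ly6a and -1.14 for Ly6c2. Set against db/m replicate 3 alone, which was assumed to vary like the db/db libraries and chosen after seeing the data, it was -0.98 for Ly6d, -0.00021 for Ly6k, -0.56 for Ly6e, -1.28 for Ly6a and -1.32 for Ly6c2. With db/db replicates 1 and 2 alone it was -3.17 for Ly6d, -4.25 for Ly6k and -3.27 for Ly6i. The Ly6e share of the summed level was 54.0% in db/db and 32.6% in db/m per length, against 75.9% and 56.8% by CPM. Of the list medians under these alternatives, 307 moved by less than the spread between libraries and 29 by more. Some changed sign: adjusting for plasma cell genes gave medians of 1.69 for granulocyte, 0.38 for dendritic cell, 0.23 for B lineage, 0.06 for motif factor and 0.64 for the other Ly6/uPAR genes. Set against db/m replicate 3 alone it was 0.83 for granulocyte, 0.35 for dendritic cell, 0.17 for motif factor and 1.31 for the other Ly6/uPAR genes. With db/db replicates 1 and 2 alone it was 0.05 for the neighbours and with replicates 3 and 4 alone -0.07 for endothelial genes. The median of the GPI list stayed near 0 and took either sign. That of the interferon list reached 0.09 with limma-voom and quality weights. It was -0.56 with the plasma cell covariate and -0.47 against db/m replicate 3 alone, moves beyond the spread between libraries (0.33). Without db/db replicate 4 the median was -1.61 for B lineage and -1.30 for granulocyte genes, and without db/m replicate 2 -0.10 for granulocyte genes. No paired analysis was possible because the replicate numbers follow accession order and mark no shared animal or batch. Counts of 4 to 95 reads limit Ly6c1.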
